A study of Mus musculus with 6 samples.

Results

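Genes of the major histocompatibility complex (MHC) class II pathway were followed in the dorsal root ganglia (DRG), which hold the cell bodies of sensory neurons. The set was chosen by name, with earlier results of these data known, so counts of its members are descriptions. It holds 7 of the 54242 gene symbols in the table: H2-Aa, H2-Ab1, H2-Eb1, Cd74, H2-DMa, H2-DMb1 and Ciita. Together they are listed with 41 transcripts. The ganglia came from levels L4-6 of male C57bl/6 mice aged 8-10 weeks. The fasted group had 10 days of intermittent fasting and the fed group ate ad libitum, with 3 libraries each, and both were killed after 24 hours. Both groups share enzymatic dissociation and a 15% BSA gradient meant to enrich neurons, so the RNA is not that of whole ganglia. No label states whether a library is 1 animal or a pool, so p-values measure only how these 6 libraries vary, part of which may be technical.

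MHC class II molecules are pairs of an alpha and a beta chain that carry peptides from endocytosed proteins to the surface of antigen-presenting cells, where CD4 T cells read them. The invariant chain, encoded by Cd74, binds new pairs in the endoplasmic reticulum, blocks the peptide groove and leads the complex to endosomes. There proteases trim it to a short fragment, and H2-DM exchanges this fragment for peptide. Ciita is the co-activator that turns the whole set on, from DNA-bound factors at a shared promoter module. In ganglia the molecules are known mainly from macrophages and other leukocytes. Values are TPM, a length-corrected share of each library's transcripts, and fold changes are fasted over fed on the log2(TPM + 1) scale, which understates changes of low genes. TPM keep no sequencing depth, so no counting error can be given.

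The pathway was expressed in every library, at levels that ran in one order. Cd74 was highest with a mean of 88.4 TPM over the 6 libraries, followed by H2-Aa at 50.1 TPM, H2-Eb1 at 42.7 TPM, H2-Ab1 at 37.9 TPM, H2-DMa at 26.8 TPM, H2-DMb1 at 14.1 TPM and Ciita at 0.46 TPM. Each gene exceeded the next in 6 of 6 libraries. Between libraries the ranges of H2-Aa (37.1 to 63.1 TPM), H2-Eb1 (34.0 to 50.4 TPM) and H2-Ab1 (29.1 to 45.5 TPM) overlapped, although the order held within each library. The range of H2-DMa, 25.1 to 28.9 TPM, lay just below that of H2-Ab1. The neuronal markers of the labelled tissue summed to between 19029 and 21918 TPM over 12 genes.

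The 3 classical chains and the invariant chain were lower in all fasted libraries than in any fed one, whereas H2-DM and Ciita overlapped between the diets. No member passed the test (limma with Benjamini-Hochberg adjustment over 15097 genes). Of all tested genes, 1, which is no member, passed at an adjusted p under 0.05, a share of 0.00662%. Without adjustment, 4 of the 6 members with a mean of at least 1 TPM had p under 0.05, all lower, against 3.22% of all tested genes. That background depends on the scaling: 486 genes were lower and 1015 higher at this p as deposited, against 733 lower and 567 higher with median-of-ratios scaling. The same 4 did not overlap between the groups in the lower direction, which held for 5.07% of all tested genes. The median log2 fold change of the 6 tested members was -0.37, against 0.03 for all tested genes. As deposited, 62.5% of all tested genes were higher and 37.5% lower in fasted libraries. Mitochondrially encoded genes held 4.83% to 5.24% of TPM in fasted libraries, against a lowest value of 5.71% in fed ones. Without these genes the median of all tested genes was 0.00059, with 567 higher and 733 lower replaced by 557 higher and 756 lower (limma, unadjusted p under 0.05). Counts of higher and lower genes in the lists below stand against the 62.5% and 37.5% as deposited, a split that depends on the scaling. In bulk samples fewer cells of a type and less RNA per cell cannot be told apart.

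H2-Aa encodes the alpha chain of the I-A molecule and lies on chromosome 17, 34282744 to 34287823, on the minus strand (GRCm38). It had 39.3, 48.4 and 37.1 TPM in fasted replicates 1, 2 and 3, against 59.1, 53.9 and 63.1 TPM in fed replicates 1, 2 and 3. Every fasted library was below every fed one, with fasted replicate 2 nearest to the fed range. The means were 41.6 ± 5.96 TPM in fasted and 58.7 ± 4.58 TPM in fed libraries (SD, n = 3 each). The log2 fold change was -0.49 (standard error 0.10, 95% interval -0.73 to -0.26; limma, adjusted p = 0.41). Nearly all of it came from 1 transcript, H2-Aa-201, with 98.6% to 99.9% of the gene's TPM.

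H2-Ab1 encodes the beta chain that pairs with it (chromosome 17, 34257689 to 34269419, plus strand). It had 31.5, 35.8 and 29.1 TPM in fasted replicates 1, 2 and 3, against 45.5, 40.1 and 45.2 TPM in fed replicates 1, 2 and 3. The groups did not overlap, and fasted replicate 2 was again the highest of its group, as fed replicate 2 was the lowest of its own. This gave a log2 fold change of -0.43 (standard error 0.08, 95% interval -0.63 to -0.24; limma, adjusted p = 0.41). The alpha to beta ratio, H2-Aa over H2-Ab1, overlapped between the diets, at 1.25, 1.35 and 1.28 in fasted and 1.30, 1.344 and 1.39 in fed libraries (exact permutation p = 0.3, two-sided).

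H2-Eb1 encodes the beta chain of the second class II molecule, I-E (chromosome 17, 34305867 to 34316674, plus strand). C57BL/6 mice are known to make no I-E at the surface, because the alpha chain gene is defective in this strain. That gene, listed as H2-Ea and annotated as a polymorphic pseudogene, was at 0 in all 6 libraries. H2-Eb1 itself had 38.4, 40.1 and 34.0 TPM in fasted replicates 1, 2 and 3, against 50.4, 45.6 and 47.6 TPM in fed replicates 1, 2 and 3. The groups were apart, with a log2 fold change of -0.35 and a standard error of 0.07 (95% interval -0.51 to -0.18; limma, adjusted p = 0.41). The gene total of H2-Eb1 was close to that of H2-Ab1, but the coding transcript H2-Eb1-203 averaged 7.77 TPM in fasted and 10.98 TPM in fed libraries. H2-Ab1-201, the main coding transcript of H2-Ab1, averaged 31.3 and 42.6 TPM in the same groups.

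Cd74, the invariant chain, lies outside the complex on chromosome 18, 60803848 to 60812652 (plus strand). It had 75.3, 88.2 and 65.7 TPM in fasted replicates 1, 2 and 3, against 100.8, 95.2 and 105.0 TPM in fed replicates 1, 2 and 3. All fasted libraries were below all fed ones. Mean levels were 76.4 ± 11.3 TPM in fasted and 100.3 ± 4.94 TPM in fed libraries (SD, n = 3 each). For the gene this made a log2 fold change of -0.40 (standard error 0.10, 95% interval -0.63 to -0.17; limma, adjusted p = 0.42). Per H2-Aa transcript there was slightly more Cd74 in fasted libraries, with ratios of 1.92, 1.82 and 1.77 against 1.71, 1.77 and 1.67 in fed ones. The highest fed ratio (1.765) and the lowest fasted ratio (1.769) were nearly equal, and the exact permutation p of 0.1 is the smallest that 3 against 3 allows.

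**Figure D1:**
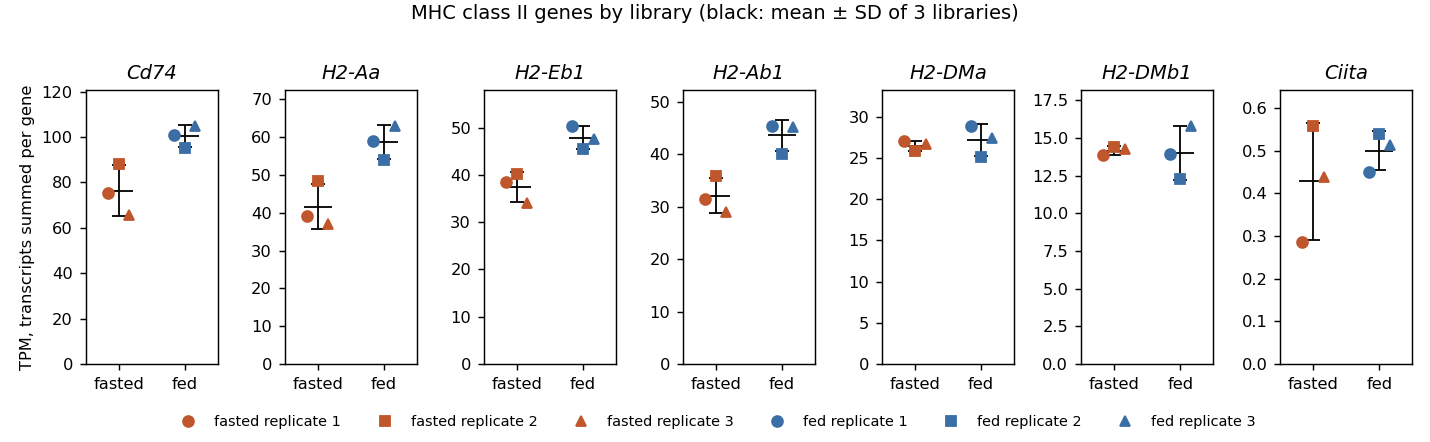
TPM of the 7 class II genes in each library (symbols mark replicate numbers, orange fasted, blue fed; black lines give the mean and SD of 3 libraries; each axis starts at 0). Cd74, H2-Aa, H2-Eb1 and H2-Ab1 do not overlap between the groups, whereas H2-DMa, H2-DMb1 and Ciita do.

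H2-DMa and H2-DMb1 encode the chains of H2-DM, which is not displayed at the surface but edits the peptides bound to the classical molecules. H2-DMa (chromosome 17, 34119541 to 34139101, plus strand) had 27.0, 25.8 and 26.6 TPM in fasted replicates 1, 2 and 3, against 28.9, 25.1 and 27.5 TPM in fed replicates 1, 2 and 3. The fasted values lay inside the fed range. The log2 fold change was -0.03 (standard error 0.06; limma, adjusted p = 0.85). Its 95% interval of -0.17 to 0.11 does not reach the estimates of the 4 genes above. Those estimates have errors of their own, and the interval of Cd74, up to -0.17, just meets it. Comparing intervals is no test of a difference between genes.

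H2-DMb1 (chromosome 17, 34153072 to 34160230, plus strand) had 13.8, 14.4 and 14.3 TPM in fasted replicates 1, 2 and 3, against 14.0, 12.3 and 15.8 TPM in fed replicates 1, 2 and 3. Again the fasted libraries lay within the fed range, with a log2 fold change of 0.02 and a standard error of 0.09 (95% interval -0.19 to 0.23; limma, adjusted p = 0.94). The sign was negative, at -0.01, under median-of-ratios and TMM-type scaling. H2-DMb2, a close copy that lies beside it, had a mean of 0.55 TPM in fasted and 0.67 TPM in fed libraries. Reads of the 2 copies may be split between them, and their sum had a log2 fold change of 0.01.

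The contrast between the classical chains and H2-DM was also visible within libraries, where scaling has no part. H2-Aa per H2-DMa was 1.45, 1.87 and 1.39 in fasted libraries, against 2.04, 2.15 and 2.30 in fed ones. H2-Ab1 per H2-DMb1 was 2.28, 2.49 and 2.04 in fasted libraries, against 3.26, 3.27 and 2.86 in fed ones. Cd74 per H2-DMa was 2.79, 3.41 and 2.47 in fasted libraries, against 3.49, 3.798 and 3.82 in fed ones. None of these 3 ratios overlapped between the groups (exact permutation p = 0.1 each, two-sided, the smallest that 3 against 3 allows). The pairs were chosen after the values were seen.

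Ciita, on chromosome 16, 10480059 to 10528418 (plus strand), was below the 1 TPM needed for testing. It had 0.29, 0.56 and 0.44 TPM in fasted replicates 1, 2 and 3, against 0.45, 0.54 and 0.51 TPM in fed replicates 1, 2 and 3. The highest and the lowest values were both fasted, so the groups overlapped. Of its 8 listed transcripts 5 were above 0 in some library, led by Ciita-201 with 60.7% to 95.9% of the gene's TPM.

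**Figure D2:**
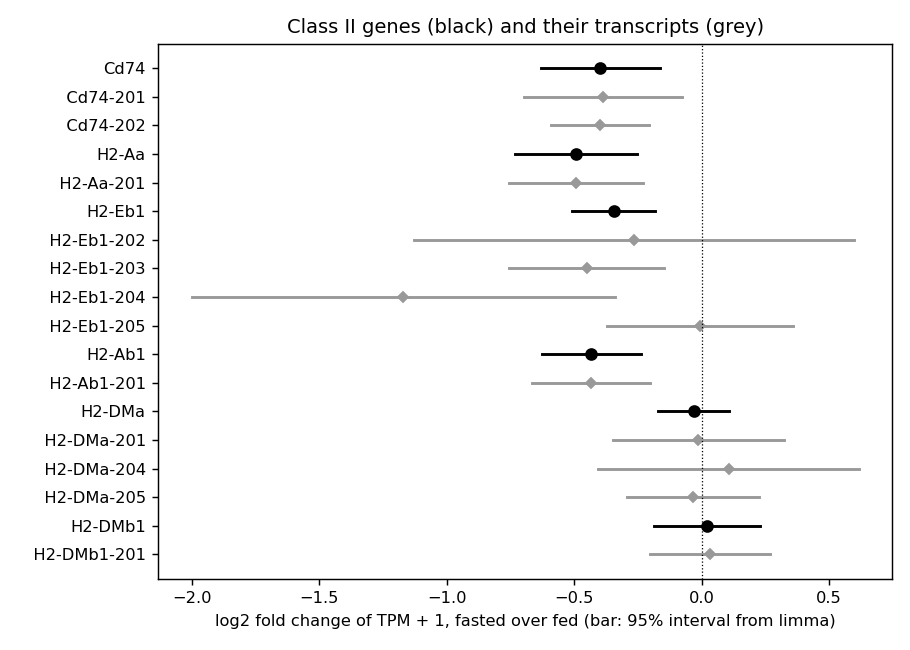
Log2 fold change, fasted over fed, of the 6 tested class II genes (black) and of their transcripts with a mean of at least 1 TPM (grey), with 95% intervals from limma. The intervals of Cd74, H2-Aa, H2-Eb1 and H2-Ab1 lie below 0 before adjustment for multiple tests, and those of H2-DMa and H2-DMb1 span 0.

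Upstream of class II genes lies a module of X and Y boxes, bound by the RFX complex and by NF-Y, on which Ciita docks. RefSeq promoter windows (GRCm38.p6, 250 bases before to 50 after the start) were matched for 4 of the 7 members: H2-Aa, H2-Eb1, H2-DMa and H2-DMb1. They were searched on both strands for GNAAC, a core of the X box, followed after 24 to 30 bases by GATTGG, the Y box. The pair stood in the windows of 3 members, H2-Aa, H2-Eb1 and H2-DMb1, with gaps of 27, 26 and 27 bases. Its first base was at -81, -91 and -94 relative to the start in these 3. Of all 32851 windows, 153, or 0.466%, held such a pair. GATTGG stood in 16.1% and GNAAC in 84.8% of them, each counted with or without the other. Of the other class II chains with a window, all below 1 TPM here, H2-Oa and H2-Ob held it and H2-DMb2 did not. The 2 windows of H2-DMa did not hold the pair. They end at 34122881 and 34125567, whereas H2-DMa-205, the most abundant transcript of H2-DMa, starts at 34135628. The bases just before the start of H2-DMa-205 were therefore not searched. To show the shared module, the 150 bases before the start of the 2 chain genes are printed 5′ to 3′ on the strand of the gene, with GNAAC and GATTGG in capitals. H2-Aa is at chr17:34287824-34287973 (minus strand) and H2-Eb1 at chr17:34305717-34305866 (plus strand).
H2-Aa: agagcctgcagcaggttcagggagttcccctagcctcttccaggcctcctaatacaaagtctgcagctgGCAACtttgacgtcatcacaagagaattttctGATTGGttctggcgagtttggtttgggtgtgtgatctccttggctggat
H2-Eb1: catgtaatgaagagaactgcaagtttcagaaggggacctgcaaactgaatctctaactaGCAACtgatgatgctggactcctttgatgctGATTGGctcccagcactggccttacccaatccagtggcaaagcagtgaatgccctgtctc
A match is a description of letters and no evidence of binding. The motif pair was present both in H2-Aa, whose groups were apart, and in H2-DMb1, whose groups overlapped.

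Cd74 makes a shorter and a longer invariant chain. The longer form contains a thyroglobulin domain, known to inhibit cathepsin L. Its transcript Cd74-202 has 9 exons, and exon 7 (chromosome 18, 60811294 to 60811485, 192 bases, 64 codons) is absent from the 8 exons of Cd74-201. Cd74-201, the short form, had 54.4, 66.9 and 47.5 TPM in fasted libraries, against 72.2, 68.4 and 79.3 TPM in fed ones. Cd74-202 had 20.6, 20.4 and 18.2 TPM in fasted libraries, against 28.2, 26.7 and 24.2 TPM in fed ones. Both forms were lower in every fasted library than in any fed one, as 4.98% of the 33197 transcripts tested were, while 9.38% were higher without overlap. The long form made up 27.3%, 23.2% and 27.7% of Cd74 TPM in fasted replicates 1, 2 and 3, against 28.0%, 28.1% and 23.0% in fed replicates 1, 2 and 3. These shares overlapped, and the means of 26.1% ± 2.52 in fasted and 26.4% ± 2.89 in fed libraries differed by less than the spread between replicates (SD, n = 3 each; exact permutation p = 0.6, two-sided). The difference of -0.31 percentage points became 1.14 without fasted replicate 2, 0.50 without fed replicate 1 and 0.54 without fed replicate 2.

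H2-Eb1 was spread over 5 transcripts, of which the one annotated for nonsense-mediated decay, H2-Eb1-205, was the most abundant. It had 16.8, 24.4 and 16.99 TPM in fasted libraries, against 17.9, 19.3 and 20.5 TPM in fed ones, with a log2 fold change of -0.0061 and a standard error of 0.15. The coding transcript H2-Eb1-203 had 6.63, 8.65 and 8.03 TPM in fasted libraries, against 10.4, 12.5 and 10.0 TPM in fed ones. H2-Eb1-204, annotated with a retained intron, had 6.93, 2.32 and 2.39 TPM in fasted libraries, against 9.32, 8.92 and 8.95 TPM in fed ones. The means of H2-Eb1-205 were 19.4 TPM in fasted and 19.2 TPM in fed libraries, so by means the lower gene total lay in the other transcripts. That reading rests on fasted replicate 2, at 24.4 TPM. In fasted replicates 1 and 3, H2-Eb1-205 was also below every fed library. No member transcript passed, as 0.0271% of all tested transcripts did (limma over transcripts, adjusted p = 0.65 for H2-Eb1-203 and 0.66 for H2-Eb1-204, with unadjusted p = 0.011 and 0.013). Shares among transcripts that overlap this closely are estimates, so single transcripts are less certain than the gene total. In H2-DMa the leading coding transcript H2-DMa-205 had 17.7, 14.6 and 18.7 TPM in fasted libraries, against 16.7, 16.5 and 18.9 TPM in fed ones, and overlapped.

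**Figure D3:**
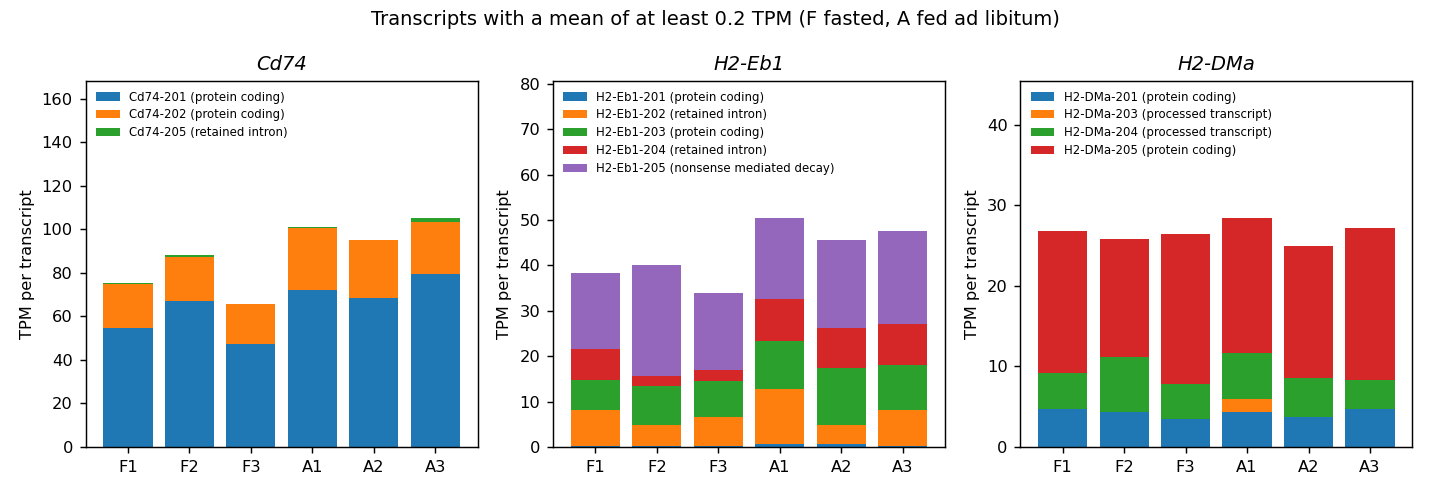
TPM of the transcripts of Cd74, H2-Eb1 and H2-DMa with a mean of at least 0.2 TPM, stacked per library (F1 to F3 fasted, A1 to A3 fed ad libitum; bars start at 0). The Cd74 bars keep a similar split between Cd74-201 and Cd74-202, while H2-Eb1-205 holds a larger share of the fasted H2-Eb1 bars, between 43.7% and 60.8% against 35.4% to 43.2%.

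Other genes of the pathway were read from lists. The remaining class II chains were below 1 TPM on average: H2-DMb2 (above), H2-Ob at 0.53 TPM in fasted and 0.75 TPM in fed libraries, H2-Oa at 0.15 and 0.17 TPM, and H2-Eb2 at 0.019 and 0.019 TPM. H2-Oa and H2-Ob encode H2-O, an inhibitor of H2-DM known from B cells. Of 12 genes of antigen processing, 6 were lower and 6 higher, with a median log2 fold change near 0 (-0.0027), and 0 passed (limma). Only 1 gene had an unadjusted p under 0.05 (limma), in the lower direction, as 3.22% of all tested genes had. It was also the only 1 of the 12 without overlap, lower, which held for 5.07% of all tested genes. That gene was Ctss, cathepsin S, the protease that trims the invariant chain in antigen-presenting cells. Ctss had 8.32, 10.3 and 8.72 TPM in fasted replicates 1, 2 and 3, against 14.0, 18.7 and 14.0 TPM in fed replicates 1, 2 and 3. The groups were apart (limma, adjusted p = 0.41, with a log2 fold change of -0.71 and a standard error of 0.13). Ctsb and Ctsl, lysosomal proteases of many cell types, were far more abundant and overlapped. Ctsb had 1344 ± 6.72 TPM in fasted and 1284 ± 76.4 TPM in fed libraries, and Ctsl 852.1 ± 21.2 and 873.4 ± 69.7 TPM (SD, n = 3 each). Ap1s1 and Ap2a1, subunits of clathrin adaptors, had log2 fold changes of 0.06 and 0.09.

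The DNA-binding factors of the module overlapped between the diets in 6 of 7 cases. All 7 (Rfx5, Rfxap, Rfxank, Nfya, Nfyb, Nfyc and Creb1) were tested. The sign was positive for 5 and negative for 2, where as deposited 62.5% of all tested genes were higher and 37.5% lower. Their median log2 fold change was 0.11. With mitochondrially encoded genes left out, 5 of the 7 were again positive and 2 negative, with a median of 0.08. None passed or had an unadjusted p under 0.05 (limma), and in 1, Nfyb, the fasted values of 28.6, 25.1 and 24.5 TPM were above the fed values of 23.4, 24.2 and 22.9 TPM, as 12.7% of all tested genes were. Rfx5 was at 3.29 ± 0.30 TPM in fasted and 3.15 ± 0.77 TPM in fed libraries, and Rfxank at 11.1 ± 1.17 and 9.82 ± 0.97 TPM (SD, n = 3 each). The log2 fold change was -0.01 for Rfxap, 0.12 for Nfya, -0.07 for Nfyc and 0.11 for Creb1. Interferon gamma is the main inducer of Ciita. Of 10 genes listed for the induction of Ciita, 8 were lower and 2 higher, with a median of -0.06. The list holds interferon gamma receptor and signalling genes, and also factors such as Spi1 and Usf1. None passed (limma). In 2 of the 10, Ifngr2 and Irf8, the fasted values lay below the fed values without overlap, against 5.07% of all tested genes. Only 1 gene had an unadjusted p under 0.05 (limma), in the lower direction, as 3.22% of all tested genes had. That was the receptor chain Ifngr2, at 51.3, 46.1 and 47.3 TPM in fasted libraries, against 59.97, 55.5 and 52.7 TPM in fed ones (limma, adjusted p = 0.45, with a log2 fold change of -0.21 and a standard error of 0.06). Jak1 had a log2 fold change of 0.11 and Irf8 one of -0.23. Irf8, a factor of myeloid cells, was at 1.28, 1.31 and 1.14 TPM in fasted libraries, against 1.55, 1.59 and 1.77 TPM in fed ones.

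Genes around and between the members on chromosome 17 were read in their order along it. From H2-K1 to Notch4 the annotation places 27 genes, of which 19 were tested and 14 were no members. Of these 14, 8 were lower and 6 higher in fasted libraries, with a median of -0.04 and a range from -0.34 for Tap1 to 0.18 for Col11a2. In 2 of the 14, H2-Ke6 and Slc39a7, the fasted values lay below the fed values without overlap, against 5.07% of all tested genes. The tested genes between H2-DM and the classical chains were Psmb9 (0.08), Tap1 (-0.34), Psmb8 (-0.12) and Tap2 (0.03), given as log2 fold changes, and all 4 overlapped between the groups. In a longer list of 18 neighbours, 9 were lower and 9 higher, with a median of 0.01 (11 lower and 7 higher, median -0.02, with median-of-ratios scaling), and 3 did not overlap in the lower direction, namely Slc39a7, H2-Ke6 and Rps18. Among 7 genes of the class I pathway the median was -0.12, with 6 lower and 1 higher, and 0 passed (limma). Of the 7, 3 (B2m, Tap1 and H2-D1) had an unadjusted p under 0.05 (limma), all lower, against 3.22% of all tested genes. Only 1, B2m, with a log2 fold change of -0.31, did not overlap between the groups, against 5.07% of all tested genes in the lower direction. B2m, the light chain of class I, had 372.1, 393.9 and 364.4 TPM in fasted libraries, against 458.0, 508.3 and 441.2 TPM in fed ones (limma, adjusted p = 0.41).

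**Figure D4:**
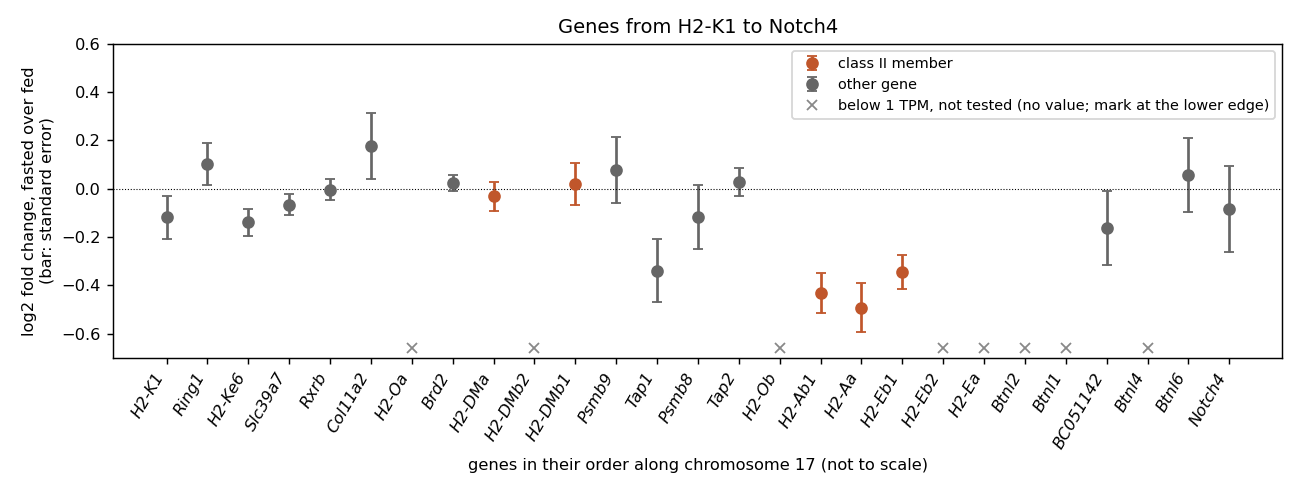
Log2 fold change, fasted over fed, with its standard error for the genes from H2-K1 to Notch4 in their order along chromosome 17 (equal spacing; orange members, grey other genes; crosses at the lower edge mark genes below 1 TPM without a value). H2-Ab1, H2-Aa and H2-Eb1 lie lowest, at -0.43, -0.49 and -0.35, with Tap1 at -0.34 next.

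Macrophage markers differed in the same direction as the classical chains. The 18 log2 fold changes were all below 0 and their median was -0.35. Of these, 11 did not overlap between the groups in the lower direction and 11 had an unadjusted p under 0.05, against 5.07% and 3.22% of all tested genes, while 0 passed (limma). Those with the smallest p were Cx3cr1 (-0.69), C1qa (-0.55), Cd68 (-0.40) and Lyz2 (-0.39). Their summed level was 132.8 to 153.1 TPM in fasted and 178.3 to 209.6 TPM in fed libraries, so the sums did not overlap. No macrophage marker was at 0 in any library. The sum of H2-Aa, H2-Ab1, H2-Eb1 and Cd74 was 184.5, 212.5 and 165.9 TPM in fasted libraries, against 255.8, 234.8 and 260.9 TPM in fed ones.

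Set against the macrophage sum, these 4 genes came to 1.39, 1.39 and 1.17 in fasted replicates 1, 2 and 3, against 1.40, 1.12 and 1.46 in fed replicates 1, 2 and 3. The ratios overlapped, with means of 1.32 ± 0.12 in fasted and 1.33 ± 0.18 in fed libraries (SD, n = 3 each). The overlap rests on fed replicate 2, whose ratio of 1.12 was the lowest of all, since the 3 fasted ratios lie below the other two fed ones. For H2-DMa and H2-DMb1 together the same ratio was 0.31, 0.26 and 0.29 in fasted libraries, against 0.23, 0.18 and 0.24 in fed ones, without overlap. Against single markers, H2-Aa per C1qa overlapped (2.90, 3.30 and 3.29 in fasted, 3.003, 2.57 and 3.43 in fed libraries). H2-Aa per Cd68 and H2-Aa per Csf1r overlapped too. Of the single markers tried, only Cx3cr1 gave groups that were apart. H2-Aa per Cx3cr1 was higher in fasted libraries (23.9, 21.7 and 19.7, against 15.3, 14.9 and 17.5). The part of macrophage number in the class II values was not tested.

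**Figure D5:**
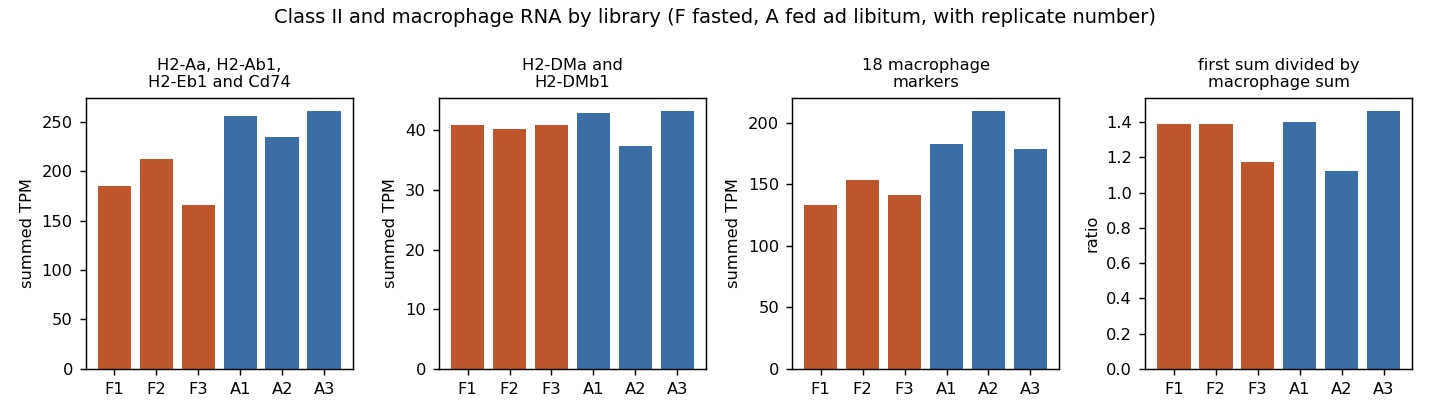
Summed TPM per library of the classical chains with Cd74, of H2-DM and of 18 macrophage markers, and the chain sum divided by the macrophage sum (F1 to F3 fasted in orange, A1 to A3 fed in blue; bars start at 0). The chain and macrophage sums do not overlap between the groups, while the H2-DM sums and the ratio do.

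Most markers of dendritic cells, B cells and T cells were low or overlapped between the groups. Of 9 dendritic cell markers 3 passed 1 TPM, 2 lower and 1 higher, and the median was -0.04. Among the other 6, Xcr1 averaged 0.041 TPM in fasted and 0.11 TPM in fed libraries and Itgax 0.44 and 0.37 TPM. Siglech, a marker of plasmacytoid dendritic cells, was the only one of the 9 whose groups did not overlap, at 0.59, 0.99 and 0.84 TPM in fasted libraries, against 0.34, 0.42 and 0.55 TPM in fed ones. It was not tested. The list summed to 23.3 to 25.2 TPM in fasted and 23.3 to 23.8 TPM in fed libraries, most of it Flt3 (15.0 ± 1.37 and 13.9 ± 0.90 TPM; SD, n = 3 each). Of 8 B cell markers 3 were tested, 1 lower and 2 higher, with a median of 0.07 and sums of 47.0 to 49.3 TPM in fasted and 37.7 to 52.7 TPM in fed libraries. Most of these sums was Ighm (38.6 ± 1.36 TPM in fasted and 36.8 ± 4.29 TPM in fed libraries; SD, n = 3 each). Igkc averaged 4.86 and 3.63 TPM and Cd79a 1.91 and 1.99 TPM in the same groups. The defining B cell gene Ms4a1 was near 0, at 0.24 TPM in fasted and 0.30 TPM in fed libraries. Of 9 T cell markers only Lck (0.38) was tested, and Cd3e averaged 0.098 TPM in fasted and 0.13 TPM in fed libraries, with 1 fed library listed at 0. T cell sums were 2.82 to 5.24 TPM in fasted and 3.36 to 4.14 TPM in fed libraries. Of 4 genes shared by leukocytes 3 were lower, among them Ptprc (-0.28) and Cd53 (-0.32). Coro1a was higher, at 0.06.

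All 11 endothelial markers were lower too, with a median of -0.26, 7 without overlap (5.07% of all tested genes), and sums of 193.4 to 210.3 TPM in fasted and 228.7 to 271.2 TPM in fed libraries. Sox18 (-0.41), Sox17 (-0.34), Emcn (-0.26) and Ly6c1 (-0.39) had the smallest p among them. Neuronal markers had a median of 0.07 (11 of 12 higher), satellite glia markers -0.0044 (4 of 7 lower), myelinating Schwann cell markers -0.01 (4 of 7 lower) and fibroblast markers 0.05 (4 of 6 higher, 3 of 6 with median-of-ratios scaling). Among these, 2 Schwann cell markers were lower without overlap (5.07% of all tested genes). In the higher direction, 1 neuronal, 1 satellite glia and 1 fibroblast marker did not overlap (12.7% of all tested genes). Skeletal muscle markers were lower in all 6 cases, with sums of 53.2 to 236.3 TPM in fasted and 203.6 to 2750 TPM in fed libraries, the highest in fed replicate 2. The muscle median was -1.98, and -0.81 without that library. Erythrocyte markers were higher in all 5 cases, without overlap (12.7% of all tested genes), with sums of 1715 to 3277 TPM in fasted and 1284 to 1564 TPM in fed libraries. Their median was 0.80, and 0.53 without fasted replicate 3. The highest erythrocyte sum was in fasted replicate 3, which also had the lowest class II sum. With both fed replicate 2 and fasted replicate 3 left out, all 18 macrophage markers were lower, with a median of -0.27, and the log2 fold changes were -0.48 for H2-Aa, -0.42 for H2-Ab1, -0.31 for H2-Eb1 and -0.33 for Cd74. The parts of blood, muscle and vessel RNA in the class II values were not tested.

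The genes most like the classical chains were sought by profile. Each tested gene was centred on its mean, and the root mean square difference from the mean profile of H2-Aa, H2-Ab1, H2-Eb1 and Cd74 over the 6 libraries was taken on the log2 scale. The genes that define this profile differed from it by 0.02 (H2-Ab1) to 0.06 (H2-Eb1), which is small in part by construction. H2-DMa and H2-DMb1, which are no part of it, differed by 0.22 and 0.24, against a median of 0.26 over 15091 other genes. Foxc1, a forkhead transcription factor, was nearest at 0.05. The next in order, 1 predicted or clone name, is counted and not named. Gbp4, an interferon-induced GTPase, and Fas, the death receptor, came after it at 0.07 each. Nr1d1, a repressor of the circadian clock, and H60b, a ligand of the receptor NKG2D, were also at 0.07. Ifi204, interferon-induced, the receptor Lpar6 and the forkhead factor Foxd1 were at 0.08. Their library values ran from 0.86 TPM (Ifi204) to 16.1 TPM (Nr1d1), and 0 of the 8 passed (limma, smallest adjusted p = 0.42). Since likeness over 6 libraries is measured on the same values as the fold change, it is a description of shared shape and no independent result.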

How the data were processed

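RNA of 6 libraries was analysed, 3 fasted and 3 fed, grouped by the labels. The authors deposited TPM per transcript, each library summing to 1000000. The tools named per the submitters' processing notes are Salmon 1.6.0, Trim Galore 0.6.6, FastQC 0.11.9 and DESeq2 1.34.0, and the builds GRCm38 and mm10. Roles and annotation release are not given in the sources used here. TPM are shares, so a rise of some genes lowers others, and depth is lost. TPM were summed per gene symbol, and those averaging 1 TPM or more were fitted with limma 3.58.1 in R 4.3.3 on log2(TPM + 1), group as the only term, with an intensity trend and Benjamini-Hochberg adjustment (threshold 0.05). The fit was tested on simulated data. Coordinates and transcript types are from GENCODE M21 (GRCm38), which held 98.7% of the deposited transcripts. One list symbol, Hsd17b8, was matched by its synonym H2-Ke6.

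The members and lists were chosen with earlier results of these data known. All members were named, with up to 4 genes of smallest p per other list and the 8 genes of most similar profile that are not predicted or clone names (some genes are not reported here); other genes named are defining markers or were chosen after their values were seen. Exact permutation tests of 3 against 3 cannot go below p = 0.1. Alternatives covered the pseudocount, filter, scaling, variance model, library weights, replicate block and single libraries; fits on single transcripts, on coding transcripts and without both fed replicate 2 and fasted replicate 3 were chosen after seeing the data. Figures used Python 3.11.15 and matplotlib 3.10.9.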

Additional observations from a re-analysis of the deposited data

How the results depend on the processing

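Over 133 alternative values of the 6 tested members, 88 of 88 for H2-Aa, H2-Ab1, H2-Eb1 and Cd74 were below 0, and 0 of the 133 passed (limma, smallest adjusted p = 0.25). The filter, variance model and replicate block leave the fold change itself unchanged, so the 88 are not all separate checks of its sign. With 1 library left out, H2-Aa ran from -0.60 to -0.42, H2-Ab1 from -0.51 to -0.37, H2-Eb1 from -0.39 to -0.28 and Cd74 from -0.51 to -0.30. The median of the members ran from -0.45 without fasted replicate 2 to -0.29 without fasted replicate 3. The difference in summed TPM of the 7 members (-63.4 as deposited) ran from -75.7 to -52.7 with 1 library left out. H2-DMb1 changed sign to -0.0089 under median-of-ratios scaling, -0.0080 under TMM-type scaling, -0.010 without mitochondrially encoded genes, -0.014 with array weights, -0.065 without fed replicate 2 and -0.070 without fed replicate 2 and fasted replicate 3. H2-DMa turned to 0.013 without fed replicate 1, was at -0.089 without fed replicate 2 and fasted replicate 3, and its single transcript H2-DMa-204 was at 0.11. The difference in the Cd74-202 share (-0.31 percentage points) ran from -1.98 to 1.14 with 1 library left out. Of all genes, 1 passed as analysed and 2 with a pseudocount of 0.5 or 0.1. With 1 library left out, 1 to 6 passed. None passed without a filter (0 genes; limma, unadjusted p under 0.05 for 1281 higher and 802 lower), with coding transcripts only (1029 higher and 458 lower) or without fed replicate 2 and fasted replicate 3 (534 higher and 364 lower). The cause was not tested. All genes together had a median of 0.03 as deposited and 0.0019 under median-of-ratios scaling. A replicate block cannot change a mean difference in balanced groups, so only its p-values are informative. With it, H2-Aa had an adjusted p of 0.43 (limma, at -0.49) and 1 gene passed. The Cd74-202 share difference had an exact sign-flip p of 0.75 (at -0.31), and the summed difference was -63.4 by construction. Same-numbered libraries correlated by 0.07 to 0.11 in their deviations, and no label ties the numbers. Depth is unknown, so the precision of Ciita and other genes below 1 TPM cannot be given.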

Other observations

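Genes that act beside class II at the contact with T cells, and the ligand and receptors that bind the invariant chain at the cell surface, were read as a list of 8. The co-stimulatory genes were below 1 TPM on average: Cd80 had 0.18 TPM in fasted and 0.28 TPM in fed libraries, Cd86 0.44 and 0.75 TPM, and Cd40 0.074 and 0.21 TPM. Cd40 did not overlap between the groups but was not tested. Icam1, an adhesion molecule, had 1.49, 1.45 and 1.52 TPM in fasted replicates 1, 2 and 3, against 1.87, 1.99 and 1.92 TPM in fed replicates 1, 2 and 3, without overlap (limma, adjusted p = 0.52, with a log2 fold change of -0.23 and a standard error of 0.11). Mif, the cytokine that binds CD74, was abundant and similar in both groups, at 363.5 ± 9.48 TPM in fasted and 358.9 ± 14.9 TPM in fed libraries (SD, n = 3 each). Its co-receptors Cd44 (105.0 ± 5.85 and 103.2 ± 5.92 TPM) and Cxcr4 (19.8 ± 0.33 and 18.2 ± 1.97 TPM) overlapped between the groups too. Cxcr2 had 0.54 TPM in fasted and 0.55 TPM in fed libraries. Of the 4 tested genes 1 was lower and 3 were higher, with a median of 0.02 (3 lower and 1 higher, median -0.0094, with median-of-ratios scaling), and 0 passed (limma; 0 had an unadjusted p under 0.05).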
